A study of Homo sapiens with 18 samples.

Results

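Common intergenic MAX peaks near genes are sites that carried a MAX peak in all 3 deposited lists (WT, 3A and 7A MYC). Their WT summit lay outside every protein-coding gene, more than 1000 bp and at most 50000 bp from the nearest outer gene end. Only the summit was placed by this rule, so a wide peak could still run into a gene. The sites were found by taking each peak of the WT list on chromosomes 1 to 22 and X that overlapped a 3A peak and a 7A peak by at least 1 bp, and by measuring from its summit, the base of highest signal, to the protein-coding genes of RefSeq. The rule gave 4077 members among 34617 WT peaks on those chromosomes. They made up 17.6% (95% Clopper-Pearson interval, 17.1% to 18.1%) of the 23156 WT peaks found in both mutant lists. The members were thus chosen by a measured value, the presence of a called peak in each list, so peak heights are given below as a description with no test.

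MAX was profiled by chromatin immunoprecipitation with reference mouse chromatin in U2OS, a human osteosarcoma line, in which endogenous MYC was knocked out and a Tet-On transgene supplied WT, 3A or 7A MYC. Cells of each MYC form were given 1 µg/mL doxycycline for 24 h or left without it (PBS for 24 h in the labels), and each of the 6 combinations had 2 MAX immunoprecipitations and 1 input, in all 18 libraries. NIH3T3 mouse cells were added at 10%, and the residues changed in 3A and 7A, and whether each line is a single clone, are not given in the sources used here. Each deposited list holds the peaks of 1 MYC form and does not separate doxycycline from its absence or the replicates, so no value below has a replicate error and intervals cover counting error only. The antibody field names MAX whereas the protocol text describes an anti-FLAG antibody, and the signal of these antibodies cannot be told apart from the lists. The total reads per library are not given in the lists, and peak lists hold no expression values with which to check the labelled cell line.

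MAX is the obligate partner of MYC. The pair bind through basic helix-loop-helix leucine zipper domains to E-boxes, of which CACGTG is the canonical form. MAX also pairs with the MXD proteins, MNT and MGA, so that a MAX site may hold no MYC, and sites outside genes include enhancers and the promoters of noncoding RNAs.

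The sequence under a member could be read where the summit fell in a RefSeq promoter window of a long noncoding RNA (lncRNA), which runs from 250 bases before to 50 bases after a transcript start (GRCh38.p14). There were 211 such windows, of 200 lncRNA genes and with the summits of 195 members. The 6 windows below are shown because they span members with and without CACGTG, which is in capitals where present. LINC01730, LINC01976 and LOC124901454 had the highest WT peaks in such windows, and OIP5-AS1, NORAD and MALAT1 are widely expressed lncRNAs. All are printed 5′ to 3′ on the strand of the lncRNA.

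LINC01730: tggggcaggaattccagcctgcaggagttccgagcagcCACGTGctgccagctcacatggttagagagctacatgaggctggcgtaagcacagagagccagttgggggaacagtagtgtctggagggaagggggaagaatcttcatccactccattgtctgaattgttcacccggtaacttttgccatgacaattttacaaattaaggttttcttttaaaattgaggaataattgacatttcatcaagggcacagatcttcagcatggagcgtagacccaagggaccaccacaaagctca
LINC01976: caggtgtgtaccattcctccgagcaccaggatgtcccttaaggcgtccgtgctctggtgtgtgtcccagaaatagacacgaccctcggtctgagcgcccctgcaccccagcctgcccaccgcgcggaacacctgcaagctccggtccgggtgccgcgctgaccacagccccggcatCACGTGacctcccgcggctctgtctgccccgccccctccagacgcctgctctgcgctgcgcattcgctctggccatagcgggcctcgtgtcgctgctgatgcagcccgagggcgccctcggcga
OIP5-AS1: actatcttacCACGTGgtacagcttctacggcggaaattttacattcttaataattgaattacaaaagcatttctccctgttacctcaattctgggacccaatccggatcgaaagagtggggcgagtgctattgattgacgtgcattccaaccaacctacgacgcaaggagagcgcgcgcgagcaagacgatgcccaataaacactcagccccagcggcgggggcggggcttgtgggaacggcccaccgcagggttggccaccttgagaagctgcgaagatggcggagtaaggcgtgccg
NORAD: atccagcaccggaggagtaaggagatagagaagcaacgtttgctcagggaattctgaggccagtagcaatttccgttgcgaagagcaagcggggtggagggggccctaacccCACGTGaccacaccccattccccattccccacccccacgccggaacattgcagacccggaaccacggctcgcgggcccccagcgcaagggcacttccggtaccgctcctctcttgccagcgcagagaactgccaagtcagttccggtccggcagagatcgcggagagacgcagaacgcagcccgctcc
LOC124901454: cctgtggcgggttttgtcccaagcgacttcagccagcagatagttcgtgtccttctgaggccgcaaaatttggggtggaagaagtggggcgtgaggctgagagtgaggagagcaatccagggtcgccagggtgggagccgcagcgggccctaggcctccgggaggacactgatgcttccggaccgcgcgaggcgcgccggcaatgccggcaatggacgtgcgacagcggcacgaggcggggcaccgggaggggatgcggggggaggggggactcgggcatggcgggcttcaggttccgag
MALAT1: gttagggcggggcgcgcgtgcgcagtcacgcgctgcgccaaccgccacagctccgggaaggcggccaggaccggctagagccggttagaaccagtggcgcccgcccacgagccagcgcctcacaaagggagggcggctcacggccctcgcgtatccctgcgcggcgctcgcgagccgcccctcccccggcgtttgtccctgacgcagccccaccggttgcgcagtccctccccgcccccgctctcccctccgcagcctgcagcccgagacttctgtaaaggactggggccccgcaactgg

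The LINC01730 window is chr20:3808244-3808543 on the plus strand. Its CACGTG starts at base 39 of the window and its centre lay 6.5 bp from the WT summit. LINC01976 (chr17:43938011-43938310, plus strand) had CACGTG 78.5 bp from the summit. In OIP5-AS1 (chr15:41283740-41284039, plus strand) the distance was 7.5 bp, and in NORAD (chr20:36050911-36051210, minus strand) it was 26.5 bp. The windows of LOC124901454 (chr6:160520100-160520399, plus strand) and MALAT1 (chr11:65497488-65497787, plus strand) held no CACGTG, although each held the related letters CACGAG. The WT, 3A and 7A fold enrichments at these members, in that order, were 102.0, 110.9 and 70.2 at LINC01730 and 73.8, 136 and 97.8 at LINC01976. They were 23.8, 9.30 and 11.1 at OIP5-AS1, 18.98, 13.7 and 13.8 at NORAD, 109, 34.4 and 67.9 at LOC124901454 and 39.2, 46.02 and 36.3 at MALAT1. Fold enrichment here is the peak caller's ratio of signal to local background at the summit, as deposited by the authors, and each value stands on the scale of its own list. The ratio rises where the background is low, and differences between lists at a site were not tested.

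CACGTG, searched on both strands (it is its own reverse complement), was found in 39 of the 211 windows with a member summit, or 18.5% (13.5% to 24.4%). When windows that a member overlapped by 1 bp or more were counted, with or without its summit, the share was 11.5%, an alternative chosen after seeing the data. Among 2730 lncRNA windows in the same intergenic territory that no WT peak overlapped, the share was 4.65% (3.89% to 5.51%). The share was 5.41% over all 12826 lncRNA windows and 7.25% over all 34838 promoter windows of the same length. Protein-coding windows that held the summit of a common peak at a gene end had a share of 16.3% (15.3% to 17.3%). The member windows were richer in G and C than the windows with no peak, with a median of 63% against 49% and a median of 22 against 4 CpG dinucleotides. Restricted to windows of at least 60% G and C, the shares were 21.5% (14.9% to 29.4%) of 135 windows and 7.01% (4.90% to 9.66%) of 485 windows.

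The search also took 4 variants of the E-box on both strands, namely CACGCG in which the later half-site differs, CATGTG in which the earlier one differs, the mixed form CATGCG, and last CACGAG. The canonical form or at least 1 variant was in 56.9% (49.9% to 63.7%) of member windows and 30.9% (29.2% to 32.7%) of windows with no peak. It was in 35.8% of all promoter windows. CACGCG alone was in 19.9% (14.7% to 25.9%) and 3.70% (3.02% to 4.48%), in that order, whereas CATGTG was in 10.9% (7.04% to 15.9%) and 17.0% (15.6% to 18.5%). In windows of at least 60% G and C, CACGCG was in 26.7% (19.4% to 34.96%) of 135 member windows. It was in 15.1% (11.99% to 18.5%) of 485 such windows with no peak. There the canonical form or a variant was in 60% (51.2% to 68.3%) and 40.2% (35.8% to 44.7%), and CATGTG in 3.70% and 11.1%. The gap for CACGCG was thus narrower in these windows, and the part played by base composition was not tested. The AP-1 letters TGANTCA were in 18.0% (13.1% to 23.9%) of member windows. They were in 10.0% (8.90% to 11.2%) of windows with no peak, in 7.69% of all windows and in 3.75% (3.25% to 4.31%) of protein-coding windows with a common gene-end summit. Such matches are a description of letters and not of bound sites.

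Where a window held CACGTG, it lay close to the summit. The median distance was 8.5 bp (6.5 to 32.5 bp), 31 of 39 windows (79.5%, 63.5% to 90.7%) had it within 50 bp, and 38 had it within 100 bp. Members in windows with CACGTG had a median WT fold enrichment of 23.1 (16.8 to 36.4, n = 38 members), and those in windows without it had 12.6 (10.5 to 14.0, n = 157). The medians were 19.1 and 12.1 in the 3A list and 19.9 and 11.5 in the 7A list.

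**Figure D1:**
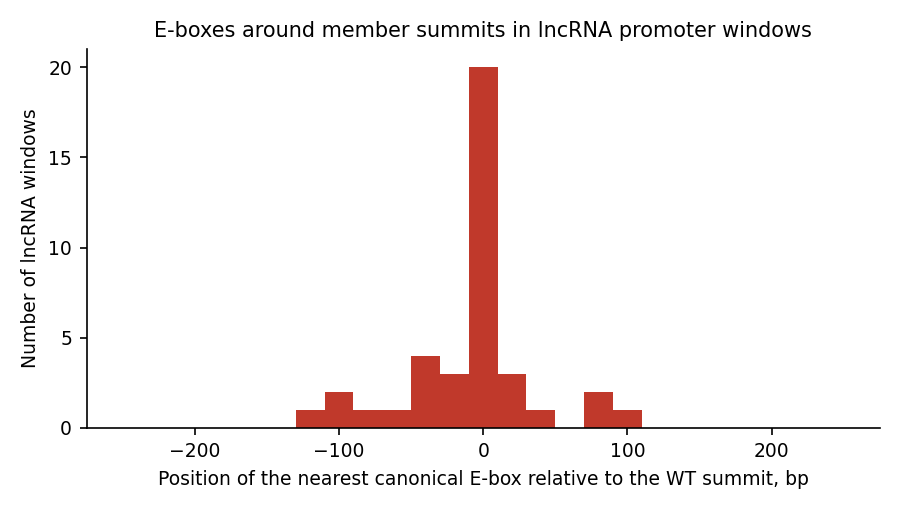
Position of the nearest canonical E-box (x axis, bp from the WT summit along the plus strand) in the 39 lncRNA promoter windows that held both a member summit and the motif. Bars count windows in bins of 20 bp, and the tallest bar is the bin centred on the summit.

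Over all members the median fold enrichment was 11.4 in the WT list (11.2 to 11.8), 10.8 in the 3A list (10.6 to 11.0) and 10.2 in the 7A list (10.0 to 10.5). The WT values ran from 2.24 to 228, with 118 members at 50 or more, 1699 below 10 and 285 below 5. The common peaks within 1000 bp of a gene end were higher, with WT, 3A and 7A medians of 16.4, 14.3 and 13.9. Common peaks inside genes (12.1 in WT) and those over 50000 bp from a gene (11.0 in WT) lay nearer to the members. The median WT width of members was 562 bp (550 to 576 bp), against 1005 bp at gene ends. It was 613 bp for common peaks inside genes and 510 bp for those over 50000 bp from a gene. The authors' −log10 q had medians over members of 109, 65.7 and 83.9 in the WT, 3A and 7A lists, with a lowest WT value of 7.63. The signal coverage solved from the deposited values had a median of 171 over a background of 14.0 in WT, 103 over 9.00 in 3A and 143 over 12.5 in 7A.

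**Figure D2:**
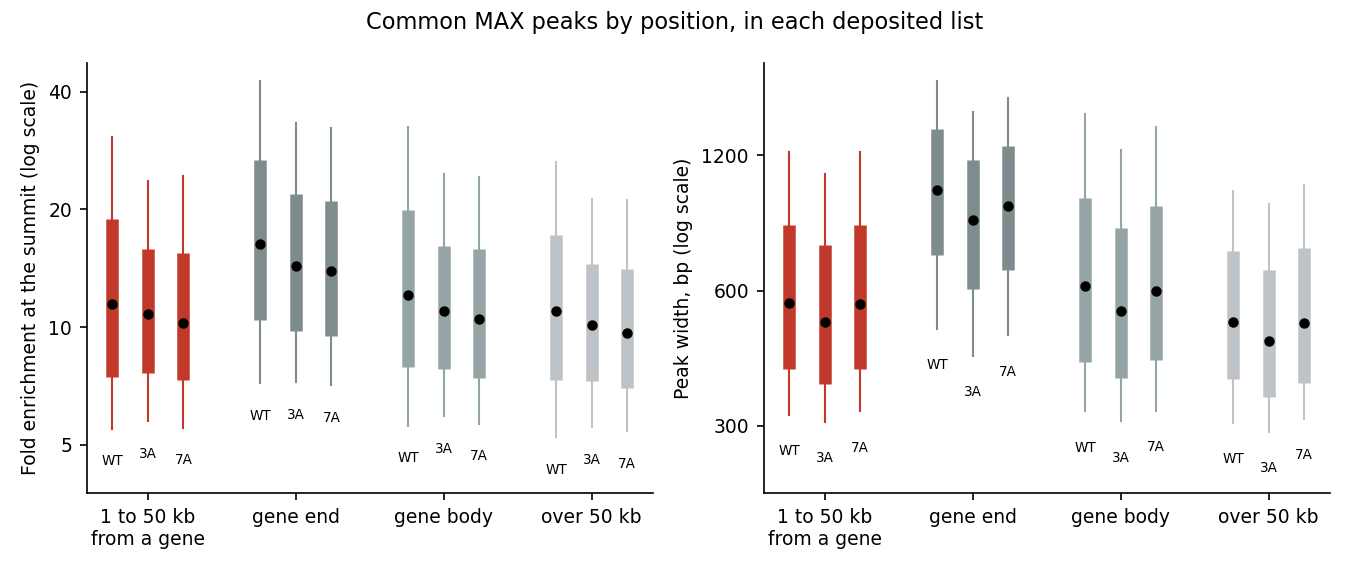
Fold enrichment (left, log scale) and peak width in bp (right, log scale) of common peaks by position in the WT, 3A and 7A lists. Black points are medians, thick bars run from the 25th to the 75th percentile and thin lines from the 10th to the 90th. The members (red) have medians below those of gene-end peaks in each list, 11.4 against 16.4 in WT.

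The highest member stood 40182 bp upstream of FOXK1, a forkhead transcription factor, at chr7:4641407-4642601 (hg38). Its fold enrichments in the WT, 3A and 7A lists were 228, 159 and 177. Its −log10 q of 11918, 4914 and 7237 was the highest of any peak on these chromosomes in each list. Coverage at its WT summit was 6139.5 over a background of 25.9.

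The second member in WT lay 25897 bp downstream of PRPS1. This gene encodes phosphoribosyl pyrophosphate synthetase, whose product is used in purine and pyrimidine nucleotide synthesis. The PRPS1 member had fold enrichments of 189.5, 55.6 and 82.0 in WT, 3A and 7A. Its WT background was 3.57, against a median of 14.0 over members, and its coverage was 865. A member 19908 bp upstream of TCF3, a basic helix-loop-helix factor that also binds E-boxes, had 161, 46.4 and 27.3. The peak with its summit 1057 bp upstream of IGF1R, the receptor of insulin-like growth factor 1, ran into the gene and had 149.9, 43.0 and 100.2. In the 7A list the TCF3 member ranked 321 among members, and the PRPS1 and IGF1R members ranked 16 and 11.

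The other members of the WT top 10 were next to DKK3 (132.9, 94.9 and 103), a secreted protein related to inhibitors of WNT signalling, NUMBL (128, 39.8 and 72.1), an adaptor related to the NOTCH antagonist NUMB, and NKAIN1 (114, 38.2 and 37.9). STC2, a secreted glycoprotein hormone, had 110.5, 134 and 159. LPA, the apolipoprotein(a) gene, was the nearest coding gene to the LOC124901454 member printed above. YBX2, a germ cell RNA-binding protein, had 106, 48.4 and 33.2. Distances from these genes ran from 1823 bp at YBX2 to 34370 bp at DKK3. Whether height followed distance among the strongest members was not tested.

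The mutant lists put other members first. In the 3A list the highest was 2709 bp downstream of VAMP2, a vesicle fusion protein, with 163 in 3A, 115 in 7A and 43.4 in WT, where it ranked 181 among members. FOXK1 followed, then BHLHE41, a circadian repressor that binds E-boxes, with 147.8 in 3A, 67.3 in 7A and 88.6 in WT. ZCCHC7, an RNA-binding zinc finger protein, had 143, 111 and 78.9 in the same order, and the LINC01976 member near PPY came next. In the 7A list FOXK1 and STC2 led, followed by LOC124903319 (147 in 7A, 88.2 in 3A and 67.4 in WT). The cyclin gene CCNE1 came next, with 143 in 7A, 93.4 in 3A and 104 in WT, and ZFP36L1, which promotes decay of AU-rich mRNAs, followed with 131, 110.5 and 54.1.

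Across the 4077 members, the rank correlation of fold enrichment was 0.66 between WT and 3A, 0.64 between WT and 7A and 0.71 between 3A and 7A (Spearman's rho across sites, which share libraries and background within a list). Of the 100 strongest members in WT, 42 were among the 100 strongest in 3A and 40 among those in 7A. The mutant lists shared 58 of their 100 strongest, and 29 members were among the 100 strongest of all 3 lists. Whether a difference of rank at one site is larger than replicate error was not tested, since the lists hold no replicates.

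**Figure D3:**
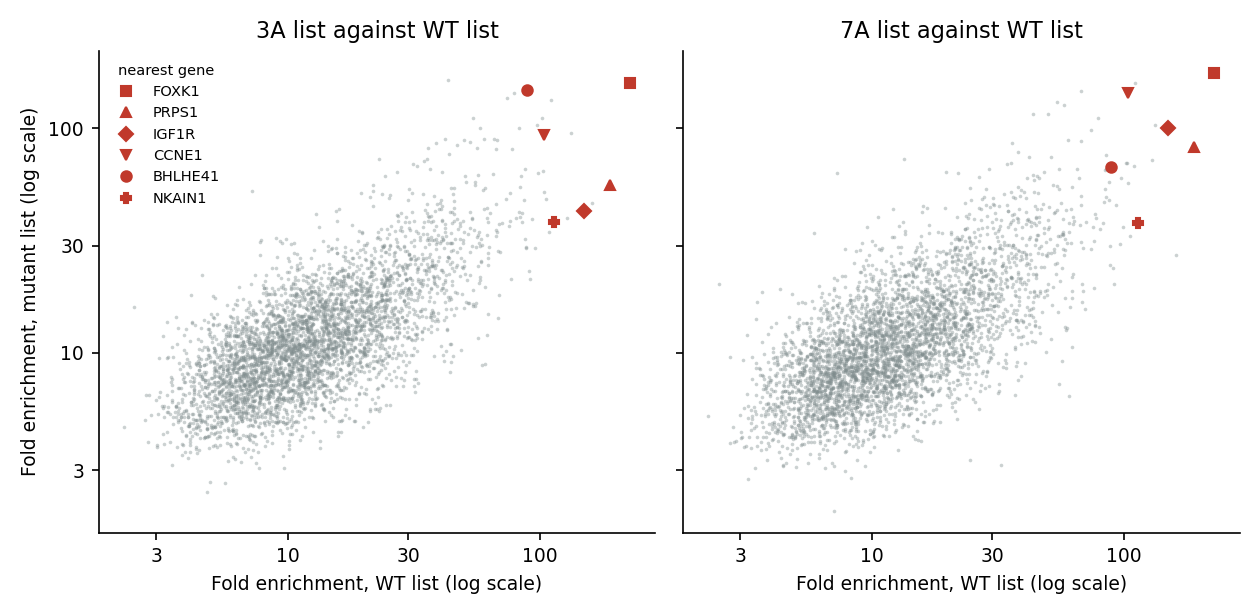
Fold enrichment of each of the 4077 members in the WT list (x axis, log scale) against the 3A list (left) and the 7A list (right, both log scale). Red symbols mark the strongest member nearest to each of 6 genes. FOXK1 is at the upper right in both panels, and PRPS1, IGF1R and NKAIN1 lie lower in the 3A panel (55.6, 43.0 and 38.2) than FOXK1 and BHLHE41 (159 and 148).

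Summit positions were compared between lists. Members were chosen by overlap, and only summits of overlapping mutant peaks were measured. The rule thus limited how far apart these summits could lie. The summit in the mutant list lay a median of 13 bp from the WT summit in 3A (12 to 13 bp) and in 7A (13 to 14 bp). It was within 50 bp for 85.6% of members in 3A (84.5% to 86.6%) and 83.2% in 7A (82.1% to 84.4%). For common gene-end peaks, which were wider, these shares were 78.6% (77.8% to 79.5%) and 77.8% (77.0% to 78.7%). In 3179 members both mutant summits lay within 50 bp of the WT summit.

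The rule set the distances, and the values at its limits are given here once. The 3 members just beyond the lower limit stood 1003 bp from DHRS3 (WT fold enrichment 13.7), 1003 bp from SHROOM3 (5.22) and 1008 bp from LSR (11.95). The common peaks just short of it were at THSD7B (998 bp, 27.7), FOXF1 (995 bp, 9.79) and ANTXRL (993 bp, 4.32). Just within the upper limit were C8orf90 (49997 bp, 6.39), MGMT (49944 bp, 20.5) and HMGXB4 (49930 bp, 6.25), and just past it TFAP2C (50060 bp, 9.96), RB1CC1 (50117 bp, 19.4) and ATF7IP2 (50207 bp, 4.56).

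Within these limits the members were spread over 572 Mb of intergenic sequence, at 7.13 per Mb (95% Poisson interval, 6.91 to 7.35). Density fell from 9.57 per Mb (8.64 to 10.6) at 1000 to 2500 bp from a gene to 6.33 per Mb (6.01 to 6.65) at 20000 to 50000 bp. Peaks in the nearest bin were also higher and wider, with a median WT fold enrichment of 14.0 (12.4 to 15.6) and a width of 696 bp, against 11.2 (10.6 to 11.8) and 548 bp in the farthest. By number, 2541 members lay within 20000 bp of a gene end, 385 of them (9.44% of all members) within 2500 bp, and 1536 (37.7%) lay beyond 20000 bp.

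Of 3096 members whose nearest gene has a strand in the promoter table, 1663 were upstream and 1433 downstream. Per Mb of sequence on each side the numbers were 6.80 (6.48 to 7.13) and 6.93 (6.58 to 7.30). The sides lay furthest apart at 1000 to 2500 bp, with 10.5 per Mb upstream (9.02 to 12.3) and 7.61 downstream (6.30 to 9.11). These intervals overlapped slightly, which does not show that the sides are alike, and the difference was not tested. The median WT fold enrichments were 11.2 upstream and 11.6 downstream.

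**Figure D4:**
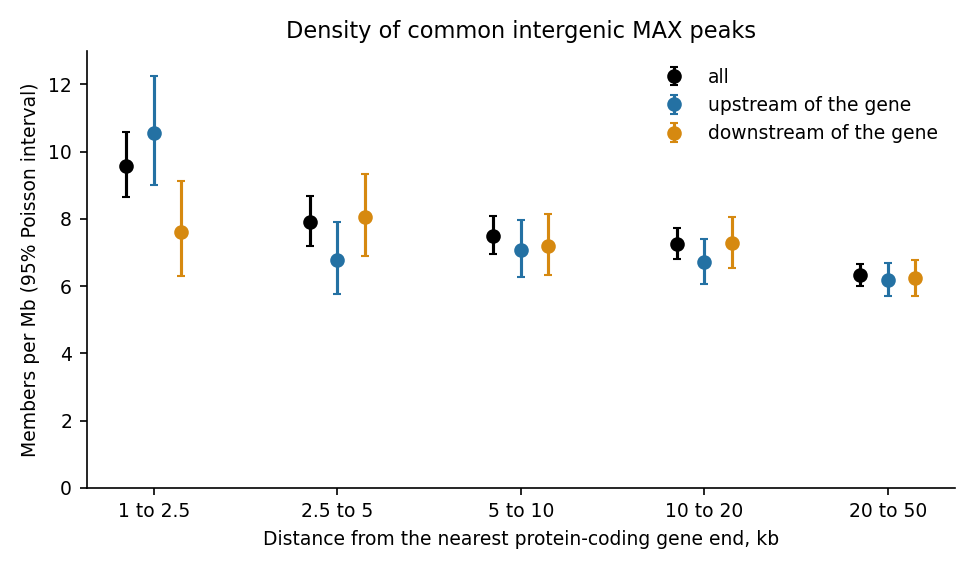
Members per Mb of eligible intergenic sequence (y axis) by distance from the nearest protein-coding gene end (x axis, kb), for all members (black) and for those upstream (blue) or downstream (orange) of the gene. Bars are 95% Poisson intervals, and the black points fall from 9.57 to 6.33 per Mb.

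By chromosome the density was highest on chromosome 22, at 17.4 per Mb (14.8 to 20.4), followed by chromosomes 20 (12.4), 17 (11.7), 19 (11.7) and 16 (10.6). It was lowest on X, at 2.15 (1.69 to 2.70), and chromosome 4, at 3.34 (2.73 to 4.04). As a share of all common peaks of the same chromosome, members ranged less, from 12.8% on chromosome 4 to 22.01% on chromosome 21. The part played by copy number in U2OS was not tested.

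The members named 2843 of 19974 protein-coding genes as nearest gene, or 14.2%. Of these, 2034 had 1 member, 552 had 2, 158 had 3, 57 had 4 and 42 had 5 or more. A common peak at an end of the same gene was present for 55.4% of these genes (53.5% to 57.2%), close to the 53.1% (52.3% to 53.8%) of the other 17131 coding genes. Members whose gene also had an end peak had a median WT fold enrichment of 11.7 (11.3 to 12.1), and those whose gene had none had 11.2 (10.8 to 11.7).

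Another member was within 10000 bp of 1251 members (30.7%, 29.3% to 32.1%), and a common gene-end peak was that near for 11.9% (10.9% to 12.9%). Any other WT peak was that near for 54.4% (52.9% to 55.9%). The share to be found from the density of members alone was not computed, so clustering was not tested. When members were joined by steps of up to 10000 bp they formed 3371 runs, of which 2826 were single and 113 had 3 or more, holding 387 members (9.49%). The longest run had 9 members over 28019 bp beside SCARB1, the high density lipoprotein receptor. Their WT fold enrichments ran from 7.06 to 29.9, the 3A values from 7.31 to 24.7 and the 7A values from 5.01 to 26.0, so no member of the run reached 30.

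Of the genes with 7 members, CPN2, a carboxypeptidase subunit, had 6 of them in a run over 20363 bp, with WT values from 5.25 up to 104 at the member nearest to the gene. COL6A3, a collagen VI chain, had 5 downstream and 2 upstream members, from 8.30 to 58.3. BAHCC1, a chromatin reader, had values from 6.78 to 44.4. RYBP, a Polycomb subunit, had a lower top value, with a range of 7.11 to 23.2. PRKCH, a protein kinase C, tied with these at 7 members and ranged from 3.89 to 20.4.

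The widest member covered 7180 bp, 1311 bp from CCND2, the cyclin D2 gene. Its WT, 3A and 7A fold enrichments were 65.9, 89.9 and 60.2, and the peaks of 3A and 7A there were narrower at 2353 and 2600 bp. GPC1, a cell surface proteoglycan, followed at 4034 bp (29.2, 24.9 and 29.5). FOSL2, an AP-1 subunit, came next at 3718 bp (40.7, 31.4 and 20.3). Each of these WT peaks ran over an end of its gene, since the rule placed only the summit outside genes.

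The genes next to members were then set out by lists of known function. For each list the count of genes that were nearest to at least 1 member is given beside the 14.2% of all coding genes, with the members per Mb of the intergenic sequence nearest to its genes beside the 7.13 of all genes. Genes with more intergenic sequence can hold more members, which the second measure takes into account. Members in runs share a region, which the Poisson intervals do not take into account. The lists were also chosen with earlier results of these data known, so the intervals describe the lists and test none of them. In 7 of the 14 coding lists the interval lay above 7.13, and in the other 7 it included that value.

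Immediate early and AP-1 genes are switched on within minutes by growth factor and stress signals. Of 31 such genes 19 (61.3%) had a member, with 41 members in all and 27.3 per Mb (19.6 to 37.0). NR4A2, an orphan nuclear receptor, had the highest, with WT, 3A and 7A fold enrichments of 51.2, 21.1 and 27.9 at 8933 bp. JUN, an AP-1 subunit, had 41.2, 32.0 and 39.0 at 25131 bp downstream, and FOSL2 was next. The members of the list had a median WT fold enrichment of 12.1 (8.86 to 17.9), near the 11.4 of all members, so they were numerous and of ordinary height.

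Matrix and focal adhesion genes encode collagens, laminins, integrins and their links to actin. Members were nearest to 18 of 39 of them (46.2%), with 43 members and 32.6 per Mb (23.6 to 44.0), the highest density of the lists. The strongest were 2 of the COL6A3 members, with WT, 3A and 7A values of 58.3, 32.2 and 13.1 and of 49.9, 15.9 and 20.3. ITGA3, an integrin chain that binds laminin, had 44.8, 30.9 and 22.2 at 4902 bp. The list's median in WT was 14.0 (9.13 to 18.1).

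Growth factors and their receptors had a member at 14 of 35 genes (40%), with 32 members and 14.6 per Mb (9.99 to 20.6). Beside IGF1R, NRP1, a coreceptor of vascular endothelial growth factor and semaphorins, had 53.1, 86.7 and 42.6 at 43281 bp. PDGFA, a platelet-derived growth factor chain, had 45.0, 51.0 and 61.2 at 25257 bp downstream. PDGFA had 6 members in all, the weakest at 6.37 in WT.

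TGF-beta and BMP signalling genes had a member at 13 of 34 (38.2%), with 24 members and 13.5 per Mb (8.67 to 20.1). The 2 highest were beside ID3 and ID4, BMP targets whose products are helix-loop-helix proteins that lack a DNA-binding region. ID3 had 62.9, 29.6 and 37.6 at 2860 bp downstream and ID4 had 58.1, 21.2 and 17.6 at 32425 bp upstream. NOG, a secreted BMP antagonist, had 39.2, 19.9 and 28.2 at 1019 bp.

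CDK inhibitors and p53 targets had a member at 9 of 27 genes (33.3%), with 15 members and 19.6 per Mb (11.0 to 32.4). PHLDA3, an inhibitor of AKT, had 48.2, 36.5 and 34.3 at 2153 bp. GADD45B, a stress response gene, had members of 33.8, 21.1 and 15.7 and of 23.005, 14.02 and 9.84 on its 2 sides.

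Circadian clock genes, several of which are regulated through E-boxes, had a member at 8 of 21 (38.1%), with 14 members and 22.1 per Mb (12.1 to 37.0). The BHLHE41 member described above was the highest. Its relative BHLHE40 had 5 members, of which the 2 strongest had 37.2, 24.4 and 17.8 at 41529 bp downstream and 24.5, 17.4 and 12.8 at 38137 bp downstream.

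The MAX network, which consists of MYC, MAX and their dimer partners and relatives, had a member at 5 of 13 genes (38.5%), with 8 members and 20.8 per Mb (8.98 to 41.0). All 8 had modest heights, from 4.70 to 10.2 in WT, with a median of 7.52 (4.70 to 10.2). MGA, a MAX partner in a Polycomb complex, had 10.2, 6.29 and 6.01. MYC itself had 9.43, 9.71 and 6.43 at 13012 bp. MLXIPL, a glucose-responsive relative of the network, had 9.03, 8.22 and 6.57.

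Genes of biosynthesis and growth were near the background by number. Ribosome assembly and RNA polymerase I genes had a member at 3 of 35 (8.57%), with 5.61 per Mb (1.16 to 16.4). UTP11 had WT, 3A and 7A values of 14.3, 10.5 and 10.4, NHP2 had 13.9, 5.59 and 7.34 and POLR1A had 13.3, 9.71 and 9.84. Translation factors had a member at 3 of 32 (9.38%), with 4.74 per Mb (1.29 to 12.1). EEF1G, an elongation factor subunit, had the highest of these, with 54.0, 39.9 and 30.3.

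Nucleotide and one-carbon synthesis had a member at 4 of 29 genes (13.8%), with 7.39 per Mb (2.40 to 17.2). These few included the PRPS1 member and one 1891 bp upstream of RRM2, a ribonucleotide reductase subunit, with 62.5, 38.4 and 40.2. The next was beside CTPS1 (7.25, 3.71 and 4.76), so the list held very high and very low members.

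Glycolysis and lactate transport had a member at 5 of 22 genes (22.7%), with 11.0 per Mb (4.04 to 23.9). Glucose transporter genes had the highest, with 57.0, 33.6 and 39.4 at SLC2A3 and 33.0, 7.35 and 8.64 at SLC2A1. Coverage at SLC2A1 was 379 over a background of 10.5 in WT, 205 over 27.0 in 3A and 281 over 31.7 in 7A. The enzymes ENO1, HK2 and LDHA, named after their values were seen, had 6.82, 4.34 and 3.78 in WT.

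Cell cycle and replication genes had a member at 5 of 32 (15.6%), with 7 members and 11.4 per Mb (4.58 to 23.5). The WT fold enrichments split widely, with a median of 65.9 (6.66 to 104). The 4 highest ran from 65.9 to 104, whereas CCND1 (14.8), MCM5 (7.76) and the second CCNE1 member (6.66), named after their values were seen, were near or below the 11.4 of all members. CCNE1 (cyclin E1) had the highest, and CDC25B, a phosphatase that activates cyclin-dependent kinases, had the LINC01730 member of 102.0 and a second of 80.2, 39.9 and 35.7 at 5816 bp downstream. The WT background at the CCNE1 summit was 22 and at the CDC25B summit 19, against a median of 14.0 over members.

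Bone lineage genes, of the tissue from which U2OS arose, had a member at 10 of 26 (38.5%), but at 8.64 per Mb (4.46 to 15.1) their density included that of all genes. TWIST2, a helix-loop-helix repressor of osteoblast maturation, had 29.4, 16.1 and 13.8. RUNX1 had 21.2, 7.64 and 14.9, and ALPL, the alkaline phosphatase of mineralising bone, had 18.8, 18.2 and 19.3. Lineage genes of other tissues had a member at 11 of 45 (24.4%), with 8.20 per Mb (4.09 to 14.7). The highest were SOX2 (51.2, 57.8 and 74.3), a stem and neural cell factor, NEUROG2 (31.8, 6.67 and 6.76), a neuronal factor, and GATA1 (23.3, 14.3 and 11.3), a blood cell factor.

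**Figure D5:**
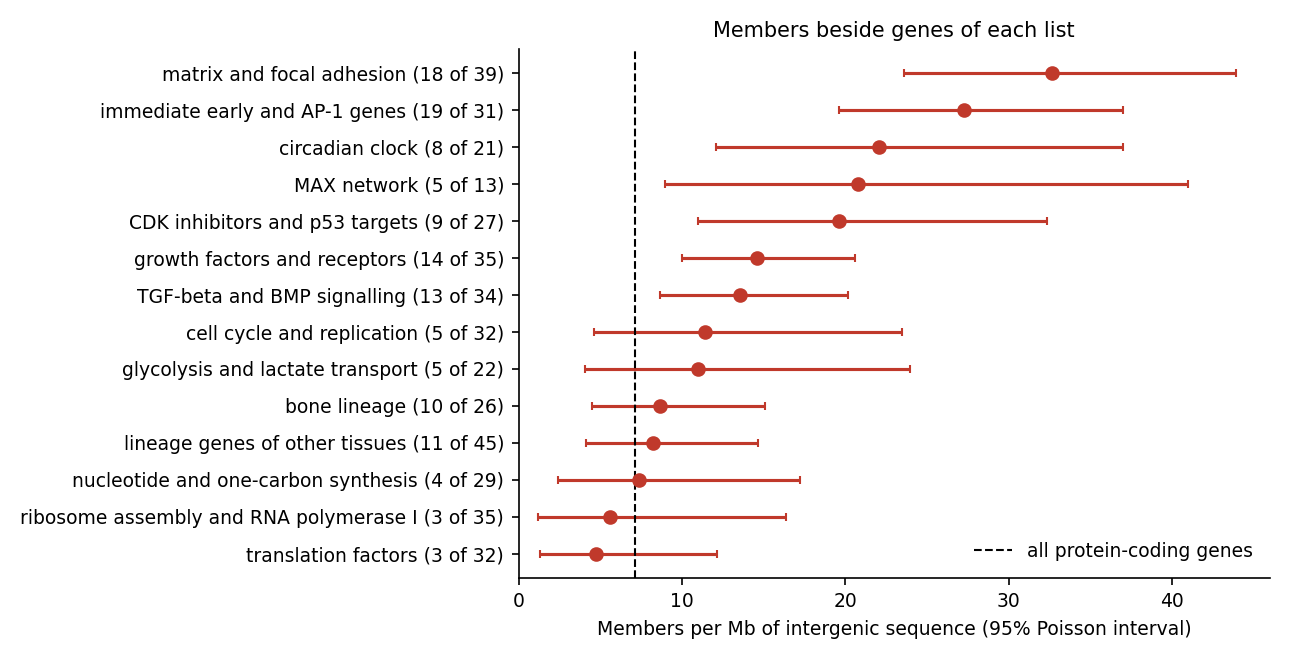
Members per Mb of the intergenic sequence nearest to the genes of each list (x axis), with 95% Poisson intervals. Each label gives the number of genes nearest to a member and the number in the list, and the dashed line is the density of all protein-coding genes, 7.13 per Mb. The 7 uppermost lists have intervals above the line, and the other 7 have intervals that include it. The lists were chosen with earlier results of these data known, and no list was tested.

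The rule used protein-coding genes only, and many members lay at noncoding ones. An outer end of a noncoding gene or pseudogene was within 1000 bp of the summit for 757 members (18.6%, 17.4% to 19.8%). Positions 20000 bp to either side of member summits that met the same distance rule had such an end in 8.59% (7.80% to 9.42%, n = 4729). The share was 22.5% (21.7% to 23.3%) for common gene-end peaks, 9.42% (8.74% to 10.1%) for those inside genes and 11.4% (10.2% to 12.7%) for those beyond 50000 bp. In contrast, 25.5% of members (24.1% to 26.8%) and 23.4% of shifted positions (22.2% to 24.6%) lay inside a noncoding gene. Members at a noncoding end had a median WT fold enrichment of 13.3 (12.6 to 14.2), and those neither at an end nor inside such a gene had 11.1 (10.8 to 11.4).

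lncRNA ends accounted for 622 members (15.3%, 14.2% to 16.4%, against 5.90% of shifted positions). They belonged to 641 of 18177 lncRNA genes, or 3.53%. The strongest members at noncoding ends were beside LOC107984935 (459 bp from it, near NKAIN1), LOC124901454, LOC124903912 (384 bp, near YBX2), LINC01730 and SNHG15. The SNHG15 member, 197 bp from its end, had 97.4, 102.9 and 59.8 in WT, 3A and 7A. It was followed by LOC124901372 near FOXO3 (87.7, 66.1 and 68.1), SNHG26 (86.8, 48.0 and 47.8), the second LINC01730 member, the transcribed pseudogene EBLN3P near ZCCHC7, and LINC02709 (76.2, 51.4 and 19.5).

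Well-known noncoding genes of RNA polymerase II had a member within 1000 bp of an end at 9 of 35 (25.7%, beside the 3.53% of all lncRNA genes). SNHG genes, which host small nucleolar RNAs in their introns, were 5 of the 9. After SNHG15 the highest were SNHG8 (55.7, 29.6 and 33.2) and SNHG16 (45.8, 41.6 and 29.2). The other 4 were NEAT1, the scaffold RNA of paraspeckles, MALAT1, NORAD, which binds Pumilio proteins, and FTX, a regulator of X inactivation. Named after their values were seen, NEAT1 had 42.0, 34.5 and 25.0 and FTX had 17.8, 16.2 and 12.2.

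Transfer RNA genes, transcribed by RNA polymerase III from promoters inside the gene, had an end within 1000 bp of 48 members. This was 1.18% of members (0.869% to 1.56%), against 0.190% of shifted positions (0.0871% to 0.361%) and 0.355% of common gene-end peaks (0.246% to 0.495%). The genes numbered 58 of 443, or 13.1%. The tRNA members were wide, with a median of 1099.5 bp, and their median WT fold enrichment was 16.3 (12.9 to 20.6). The highest, named with the other tRNA, miRNA and snRNA examples after values were seen, were TRN-GTT2-4 (62.3, 26.5 and 21.8), TRQ-TTG1-1 (61.8, 39.996 and 43.5), TRS-GCT2-1 (60.7, 8.92 and 6.43) and TRL-CAG1-7 (55.3, 56.0 and 53.4). At the first 3 the WT value was the highest of the lists, and at the last the values ranged only from 53.4 to 56.0.

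By isotype, 10 of 20 proline and 7 of 20 threonine tRNA genes had a member, and 0 of 29 cysteine genes did. The totals include tRNA genes inside or close to coding genes, where the rule leaves little or no room for a member. A common peak of any position was within 1000 bp of 115 of the 443 tRNA genes (26.0%). Of the genes with the elongator methionine symbol TRM 0 of 11 had a member, and of those with the symbol TRX, used for initiator methionine tRNA, 1 of 8 did. The 155 tRNA genes of chromosome 6, most of any chromosome, had 12 with a member, and 8 of the 13 on chromosome 11 had one. Neighbouring tRNA genes can share 1 member, so these counts are not independent.

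MicroRNA (miRNA) genes had an end within 1000 bp of 21 members, and 24 of 1911 such genes (1.26%) were that near. The median WT fold enrichment of these members was 24.7 (9.88 to 36.4). Mature sequences from RefSeq were matched for 19 of the 21 nearest miRNA genes. Those of the arms that belong to the strongest and to the pair with a shared seed are printed 5′ to 3′ with the seed, bases 2 to 8, in capitals, because the seed decides which mRNAs a miRNA pairs with.

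hsa-miR-212-3p: uAACAGUCuccagucacggcc
hsa-miR-92b-3p: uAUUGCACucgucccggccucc
hsa-let-7i-5p: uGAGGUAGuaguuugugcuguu
hsa-miR-9-5p: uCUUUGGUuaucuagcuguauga
hsa-miR-193b-3p: aACUGGCCcucaaagucccgcu
hsa-miR-193a-3p: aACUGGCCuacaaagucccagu

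MIR212, a miRNA gene known from neurons, had the highest of these members, 83 bp from the gene, with 60.5, 54.4 and 34.5 in WT, 3A and 7A. MIR92B had 47.5, 35.4 and 45.99, and its seed is that of the miR-92 family. MIRLET7I had 40.9, 32.8 and 27.6 at 902 bp, and let-7 miRNAs are known to repress growth genes. MIR9-3 had 37.8, 38.5 and 39.3. The genes MIR193B and MIR193A, on chromosomes 16 and 17, encode 3p arms with the same seed, ACUGGCC. MIR193B was highest in WT, with 37.1, 12.4 and 14.0, and MIR193A was highest in 7A, with 26.6, 34.8 and 60.5. Coverage at MIR193B was 433 over a background of 10.7 in WT, 123 over 9.00 in 3A and 198 over 13.2 in 7A. At MIR193A it was 397 over 14.0, 274 over 6.90 and 512 over 7.47 in the same order.

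Small nuclear RNA genes of the spliceosome had 5 members, at 5 of 154 genes (3.25%). RNU5B-1 had 36.8, 17.7 and 18.9, and RNU6-1 had 32.6, 12.2 and 14.4. RNU6-8 was instead highest in 7A, with 24.8, 35.6 and 48.1. Its coverage was 271 over a background of 10.0 in WT, 185 over 4.22 in 3A and 287 over 4.98 in 7A. Of 20 noncoding genes transcribed by RNA polymerase III on a separate list, 3 had a member within 1000 bp (15%). These were RNU6-1, RNU6-8 and RN7SL2, an RNA of the signal recognition particle, whose member had 16.3, 15.9 and 11.5. The share was 2.13% over all noncoding genes and pseudogenes, and 13.1% over tRNA genes, which the same polymerase transcribes. Small nucleolar RNA genes had 7 of 1196 (0.585%), at 6 members of 21.1 to 97.4 in WT.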

How the data were processed

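Members and gene lists were chosen with earlier results of these data known. The labels give MAX ChIP-Rx of 12 immunoprecipitations and 6 inputs, and the authors deposited 3 narrowPeak lists, 1 per MYC form, without depth per library. Per the submitters' processing notes, MACS2, Picard, SAMtools, Bowtie2 and cutadapt were used with hg38, hg19 and mm10, no versions or roles being stated. The sources used here do not say how replicates, inputs and doxycycline samples were combined or whether mouse reads set the scale. Positions were read as hg38 and are counted from 1.

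The authors' deposited values are a score per peak (not used), a linear fold (ratio) over background at the summit, and −log10 p and −log10 q. They were used only to describe and rank peaks, and a mutant value is that of the strongest overlapping peak. Treatment and background coverage were solved from fold and −log10 p with the formulas of MACS2, for 97.1%, 96.6% and 91.1% of members in WT, 3A and 7A. On 973 simulated summits 98.9% were solved, all of those within 2% of the truth. These summits were simulated with the same formulas and with coverage below that of the highest members. They therefore check the solving step only, and not whether the deposited values follow the formulas.

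Genes, strands, promoter windows and miRNAs are RefSeq, GRCh38.p14. Strand came from the promoter table for 15813 of 19974 coding genes. Distances run to outer gene ends. Intervals are 95% Clopper-Pearson for shares, Poisson for densities and order-statistic for medians. No genome sequence was used, so the planned E-box count at all summits, and its alternatives, became a search of lncRNA promoter windows. Named were the 10 highest WT members, the 5 highest in each mutant list, 3 to each side of each limit, 5 genes with most members, up to 3 members per gene list, the 10 highest at noncoding ends and the 3 widest, and others where stated. Computation used NumPy 2.4.6, SciPy 1.17.1 and pandas 2.3.3 under Python 3.11.15, and plots matplotlib 3.10.9. Alternatives varied overlap, peak threshold, distance limits, gene set and windows.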

Additional observations from a re-analysis of the deposited data

How the results depend on the processing

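The number of members was 3505 to 4067 when peaks had to share 50% of each, to have summits no more than 100 bp apart or to reach a −log10 q of 10, or when a lower limit of 2500 bp or all RefSeq genes were used, against 4077, and 2541 with an upper limit of 20000 bp. The median WT fold enrichment moved from 11.4 to 11.8 with summits within 100 bp and to 11.1 with all RefSeq genes, and the median width from 562 to 533 bp and 530.0 bp. The share with a noncoding end nearby was 13.4% within 500 bp and 27.0% within 2500 bp. The share with another member nearby was 18.2% within 5000 bp and 42.8% within 20000 bp. Counting every gene with an end within 50000 bp gave 5277 genes in place of 2843. Among 3 alternatives added after seeing the data, the CACGTG share of lncRNA windows was 11.5% when any overlap with a member counted, 21.5% for members of −log10 q at least 50 and 18.6% with 1 window per gene. The cause of the moves in fold enrichment, width and CACGTG share was not tested, and the other values were recounted under a changed limit. Medians of summit distance kept 13 bp in both mutant lists at 50% overlap. No paired analysis was possible because the deposited lists do not separate replicates. Depth per library is unknown, so no floor was set.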
